A study of Mus musculus with 3 samples.

Results

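The genes described here are Itgal, Itgam, Itgax, Itgae, Itga4, Itgb1, Itgb2, Itgb7 and Icam1, 9 of the 32285 genes in the count matrices, each found by its symbol in 1 row. They are a list of names, and no measured value enters the rule, although the list was drawn up with earlier results of these data known. The study sequenced single CD45+ cells of the aorta, adventitia included, in 3 libraries, 1 for each group. All mice were labelled ApoE-/- (C57BL/6J), and no group labelled as having an intact Apoe gene was analysed here. One group was a control, one drank water with homocysteine at 1.8 g/L for 4 weeks (labelled HHcy), and one was fed a western diet for 4 weeks (labelled WD). The age, the sex and the number of mice behind each library are not given in the sources used here. With 1 library per group no difference between groups could be tested, so each difference below is between libraries, with intervals that cover counting error only.

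Integrins are surface receptors made of 1 alpha and 1 beta chain, and a chain reaches the surface only with a partner. The beta2 chain encoded by Itgb2 pairs with the alphaL chain of Itgal (LFA-1), the alphaM chain of Itgam (Mac-1) and the alphaX chain of Itgax (CD11c), and these receptors serve firm adhesion, crawling and uptake of complement-coated particles. The alpha4 chain of Itga4 pairs with the beta1 chain of Itgb1 to bind Vcam1 and fibronectin, or with the beta7 chain of Itgb7 to bind the mucosal ligand Madcam1, while the alphaE chain of Itgae pairs with beta7 and binds E-cadherin. Icam1 is an immunoglobulin-family ligand of LFA-1 and Mac-1 that inflamed endothelium and many leukocytes display. In atherosclerosis, these receptors and ligands bring leukocytes from the blood into the arterial wall.

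Itgal, Itgam and Itgax lie on chromosome 7, and in the RefSeq annotation of build GRCm38.p6 they span chr7:127296139-127335137, chr7:128062640-128118491 and chr7:128129526-128150657. Itgae spans chr11:73090505-73147449, Itga4 chr2:79255426-79333114, Itgb1 chr8:128685654-128733579, Itgb2 chr10:77530329-77565708, Itgb7 chr15:102215994-102233405 and Icam1 chr9:21015940-21028814. The 250 bases before the transcript start that the RefSeq promoter table gives for Itgam, Itgax and Icam1 are shown because the first pair are neighbours with different cell patterns below, and Icam1 is the ligand. They are on the plus strand at chr7:128062390-128062639, chr7:128129300-128129549 and chr9:21015690-21015939 (RefSeq, GRCm38.p6), and capitals mark GAGGAA, a core bound by the myeloid factor PU.1, or GGAAATTCC, an NF-kB motif, on either strand. The Itgax window ends inside the gene span given above, because the table's start for that gene lies downstream of the first base of the span.
Itgam: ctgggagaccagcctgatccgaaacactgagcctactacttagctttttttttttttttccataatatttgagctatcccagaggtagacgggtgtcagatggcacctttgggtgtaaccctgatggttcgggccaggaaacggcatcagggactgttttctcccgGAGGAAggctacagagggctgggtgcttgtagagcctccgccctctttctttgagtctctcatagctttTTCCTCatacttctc
Itgax: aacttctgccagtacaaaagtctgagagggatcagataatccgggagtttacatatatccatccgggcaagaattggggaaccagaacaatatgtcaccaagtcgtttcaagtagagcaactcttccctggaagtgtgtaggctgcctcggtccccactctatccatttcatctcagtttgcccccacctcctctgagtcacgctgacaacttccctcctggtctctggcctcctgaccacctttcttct
Icam1: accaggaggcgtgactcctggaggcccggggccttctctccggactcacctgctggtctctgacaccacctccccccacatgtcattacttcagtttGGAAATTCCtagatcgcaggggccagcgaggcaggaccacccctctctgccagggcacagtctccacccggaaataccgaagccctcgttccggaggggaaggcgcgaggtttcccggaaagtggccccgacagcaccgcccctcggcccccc
The Itgam window held 2 GAGGAA matches, 1 on each strand, and the Itgax window held 0. The Icam1 window held 1 GGAAATTCC match. Of 32851 promoters of the same table, 23.3% held GAGGAA and 0.286% held GGAAATTCC in such a window, and a match is a match of letters only.

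The matrices held 66789257 UMIs (unique molecular identifiers, each standing for 1 captured RNA molecule) in 7512 barcodes for the control library, 105180370 in 9753 for the library labelled HHcy and 93164076 in 8557 for the WD library. Of these barcodes, 5436, 6380 and 5300 were used, after 9.97%, 21.8% and 21.0% of those that passed the quality limits were left out for carrying markers of 2 or more lineages. Of the 25822 barcodes, 63 had a sequence that occurred in more than 1 library. Apoe went against the label of the HHcy library: its barcodes carried 39368 Apoe UMIs, or 374 CPM (the UMIs of a gene per 1000000 UMIs). The control barcodes carried 1090 (16.3 CPM) and the WD barcodes 1801 (19.3 CPM). In it, 177 macrophages had 10 or more Apoe UMIs, against 1 control and 2 WD macrophages. It is therefore called the library labelled HHcy throughout. The WD and control comparison uses none of its UMIs, but the classes came from clustering the 3 libraries together. Clusters were named from marker genes that excluded all 9 genes. The B cell marker Cd79a was at 1669, 2052 and 1916 CPM in B cell-like cells, and CD45 itself (Ptprc) ranged from 294 to 1857 CPM in the leukocyte classes but was at 54.6, 22.1 and 26.7 CPM in fibroblast-like cells, which also expressed the collagen gene Col1a1 at 8327, 5279 and 5188 CPM and so go against the CD45 sort. Values in 3s are always given in the order control, HHcy, WD.

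Itgb2, the shared beta chain, was highest in NK cell-like cells at 606, 434 and 462 CPM, followed by neutrophil-like cells at 386, 402 and 392 CPM and macrophage/monocyte-like cells at 389, 392 and 322 CPM. The neutrophil and macrophage ranges overlap. Conventional dendritic cells had 222, 265 and 224 CPM and T cell-like cells 257, 218 and 233 CPM, again with overlapping ranges, while B cell-like cells had 52.5, 49.6 and 52.0 CPM. Among the 8 leukocyte classes with at least 20 cells in each library, B cells were thus lowest in each library, below mature dendritic cells at 55.4, 60.6 and 107 CPM. Fibroblast-like cells, which should lack the gene, gave 9.93, 4.91 and 12.5 CPM, the lowest of the 9 classes.

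Each alpha chain that pairs with beta2 had its own order of classes. Itgal was highest in NK cell-like cells at 700, 386 and 458 CPM (95% Poisson intervals 608 to 802, 312 to 471 and 381 to 546), above the range of each other class. T cells at 351, 237 and 296 CPM, macrophages/monocytes at 371, 277 and 193 CPM and neutrophils at 298, 205 and 269 CPM followed with overlapping ranges. Dendritic cells and B cells were low, B cells at 69.1, 54.9 and 60.5 CPM. Itgam was led by neutrophil-like cells at 498, 469 and 431 CPM, then macrophages/monocytes at 379, 376 and 371 CPM and NK cells at 296, 333 and 259 CPM, and these 3 ranges did not overlap. Conventional dendritic cells had less Itgam, 147, 121 and 119 CPM, and T and B cells were both between 14.2 and 36.4 CPM. Itgax, the usual surface marker of dendritic cells, was highest in conventional dendritic cells at 170, 146 and 201 CPM. NK cells (141, 101 and 126 CPM) and macrophages/monocytes (108, 81.5 and 97.1 CPM) lay below that range, and their own ranges overlapped each other. In B cells Itgax was at 3.33, 2.11 and 3.36 CPM.

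**Figure D1:**
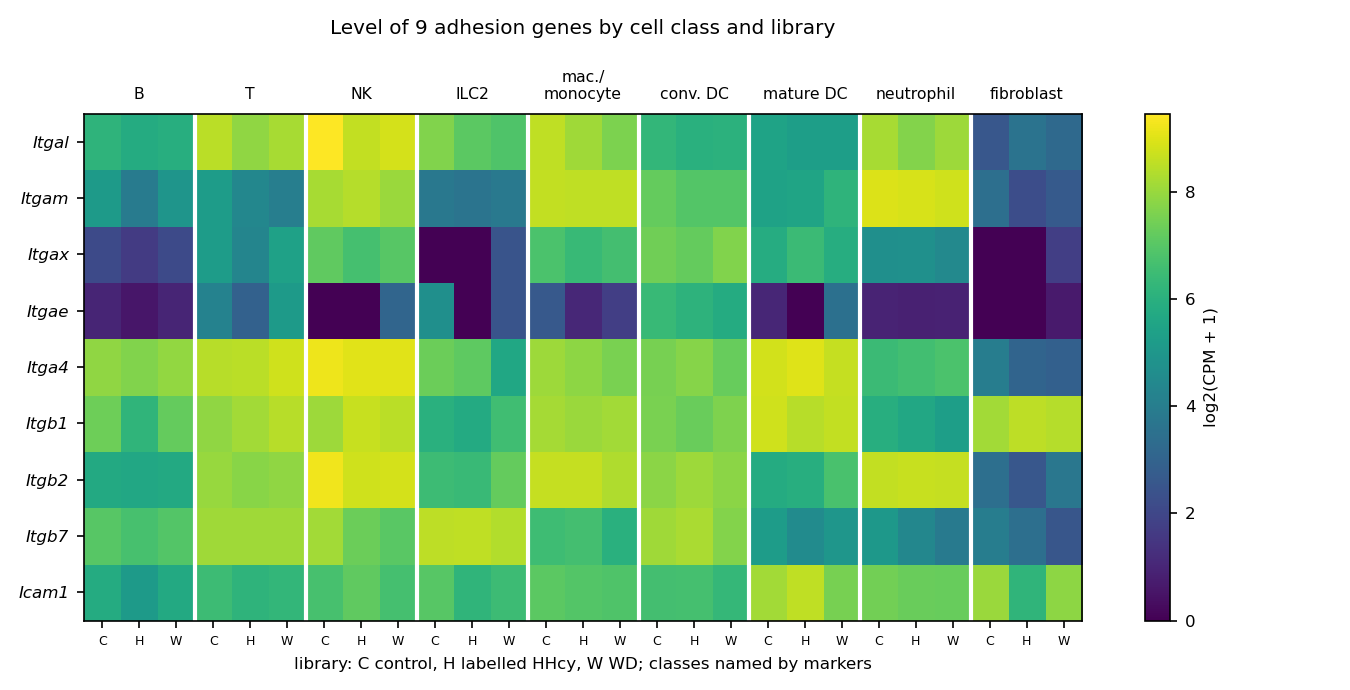
Heat map of the level of the 9 genes (rows) in 9 cell classes, with 1 column per library (C control, H labelled HHcy, W WD) and colour for log2(CPM + 1). Itgam is highest in neutrophil-like cells, Itgae in conventional dendritic cells and Icam1 in mature dendritic cells or, in the WD library, fibroblast-like cells.

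Itga4 and its partners followed other cells. Itga4 was at 586, 528 and 517 CPM in NK cells, 450, 514 and 393 CPM in mature dendritic cells and 348, 356 and 432 CPM in T cells. B cells had 238, 204 and 243 CPM of Itga4. Neutrophils were low at 86.8, 95.6 and 108 CPM. Itgb1 was broad: mature dendritic cells had 436, 348 and 386 CPM, NK cells 269, 402 and 359 CPM, fibroblasts 283, 366 and 334 CPM and T cells 234, 281 and 343 CPM, with each range overlapping the next. Neutrophils were lowest at 59.7, 49.8 and 38.7 CPM. Itgb1 was the integrin chain that fibroblast-like cells shared with leukocytes, since the other 7 chains were at 14.9 CPM or less there.

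Itgb7 was highest in ILC2-like cells (group 2 innate lymphoid cells) at 367, 377 and 328 CPM, above T cells at 278, 276 and 274 CPM and conventional dendritic cells at 273, 305 and 208 CPM. The last pair overlap in range. B cells had 127, 102 and 122 CPM. Itgae was the most restricted chain: conventional dendritic cells were at 80.7, 68.8 and 55.0 CPM and T cells at 17.1, 6.75 and 34.3 CPM, and B cells and neutrophils were below 1 CPM in each library. Conventional dendritic cells made up 5.98%, 3.25% and 4.49% of the cells used and held 65.2%, 73.7% and 54.5% of all Itgae UMIs.

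Icam1, the ligand, was detected in all 9 classes. Mature dendritic cells, which express Ccr7 and carry antigen to lymph nodes, had 282, 370 and 183 CPM, and fibroblasts 258, 71.2 and 230 CPM. Neutrophils were at 171, 154 and 152 CPM and macrophages/monocytes at 134, 119 and 114 CPM. B cells had the lowest level, 55.3, 35.0 and 52.9 CPM. The endothelial-like class, in which Icam1 is best known, had only 11, 17 and 29 cells, and gave 27, 39 and 39 Icam1 UMIs of 69830, 139981 and 200345.

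Other classes under 20 cells in some library are given as UMIs. Plasma cell-like cells (18, 80 and 20 cells) held 129, 473 and 150 Itga4 UMIs of 319494, 2343122 and 472547. The 42 plasmacytoid dendritic cell-like cells of the library labelled HHcy held 151 Itga4, 97 Itgb7 and 58 Itgax UMIs of 541445. Gamma-delta T cell-like cells (15, 20 and 21 cells) held 35, 55 and 70 Itgb7 UMIs, with 1, 4 and 15 of Itgae. Mast cell-like cells (35, 24 and 12 cells) held 39, 22 and 22 Itgb7 UMIs.

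Within the macrophage/monocyte class, Itgal and Itgb2 were higher in both monocyte subsets than in resident macrophages. Itgal was at 1229, 1184 and 1009 CPM in non-classical monocyte-like cells, which patrol the vessel wall, 498, 348 and 409 CPM in classical monocyte-like cells and 22.2, 14.8 and 27.3 CPM in resident-like macrophages (Lyve1, Folr2). The log2 ratio of non-classical monocytes to resident macrophages was 5.79, 6.32 and 5.21, and 12.4% of genes were 1.5-fold or more higher in that direction in all 3 libraries. The same contrast gave 2.69, 2.55 and 2.49 for Itga4, 2.04, 2.11 and 1.85 for Itgb2 and 2.75, 3.19 and 2.73 for Itgb7. Itgam differed little: 291, 333 and 271 CPM in non-classical monocytes, 288, 233 and 270 CPM in classical monocytes and 301, 247 and 285 CPM in resident macrophages, with overlapping ranges. These subset contrasts were picked after their values were seen and are descriptions.

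Itgax had a different order there. Foamy-like macrophages (Gpnmb, Trem2, Spp1), the lipid-laden cells of plaques, had 257, 292 and 191 CPM, non-classical monocytes 139, 140 and 146 CPM, classical monocytes 57.0, 48.8 and 63.6 CPM and resident macrophages 6.06, 3.14 and 11.2 CPM. Foamy over resident was 5.41, 6.54 and 4.09 on the log2 scale, against a background of 8.90% of genes past 1.5-fold in all 3 libraries. The foamy-like cells were made of a pair of sub-clusters in different proportions: one led by Gpnmb and Fabp5 (109, 34 and 247 cells) with Itgax at 194, 150 and 180 CPM, and one led by Mmp12 and Mmp13 (52, 52 and 28 cells) with 435, 439 and 333 CPM. Itgal in the foamy-like cells was at 116, 108 and 76.0 CPM.

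An unnamed sub-cluster stood apart in Itgam. It was led by Prg4, Saa3, Alox15, Fn1 and Cd5l and held 110, 72 and 114 cells. Its Itgam level was 1746 CPM (95% Poisson interval 1678 to 1815), 1478 CPM (1411 to 1547) and 1526 CPM (1473 to 1581), above every named class. With 5.38%, 6.06% and 4.21% of the macrophage/monocyte-like cells, it held 35.2%, 43.2% and 27.7% of their Itgam UMIs. Itgax there was at 13.9, 2.41 and 22.1 CPM, near the level in resident macrophages, while Itgb2 was at 867, 911 and 884 CPM and Itgb1 at 548, 477 and 561 CPM. A smaller unnamed sub-cluster led by Retnla and Fn1 (86, 43 and 53 cells) had both chains, with Itgam at 448, 523 and 552 CPM and Itgax at 151, 172 and 111 CPM. Both sub-clusters were singled out after their values were seen.

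**Figure D2:**
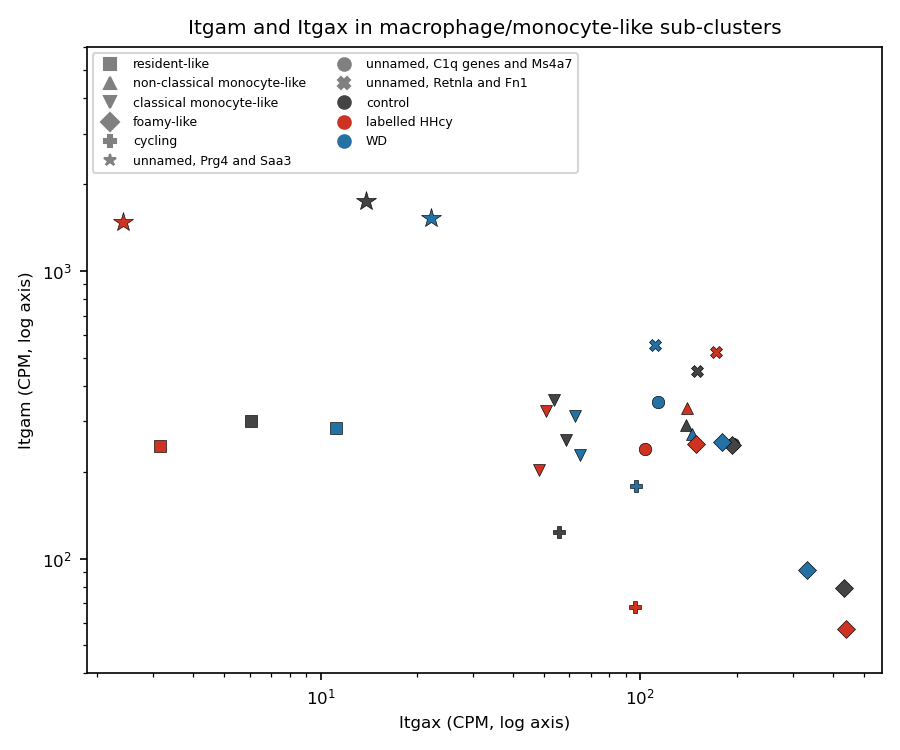
Itgam level against Itgax level (CPM, both log axes) in sub-clusters of macrophage/monocyte-like cells, with 1 point per sub-cluster and library, the shape for the sub-cluster's name and the colour for the library. The unnamed sub-cluster led by Prg4 has Itgam at 1478 CPM or more with Itgax at 22.1 CPM or less, and the Mmp12 foamy-like sub-cluster has Itgax at 333 CPM or more.

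The conventional dendritic cell subsets divided the alpha chains between them. cDC1-like cells (Xcr1, Clec9a) had Itgae at 178, 154 and 175 CPM against 11.4, 3.11 and 6.00 CPM in cDC2-like cells, a log2 ratio of 3.97, 5.63 and 4.87. Itgam was the reverse, 239, 196 and 190 CPM in cDC2-like and 32.6, 29.2 and 19.7 CPM in cDC1-like cells, a log2 ratio of cDC2 to cDC1 of 2.87, 2.74 and 3.27. Itgax was higher in cDC2-like cells too, 201, 189 and 209 CPM against 81.3, 93.7 and 79.7 CPM. Between these subsets, 5.76% of genes were past 1.5-fold towards cDC1 and 9.64% towards cDC2 in all 3 libraries. Itgb7 was similar, 317, 336 and 266 CPM in cDC1-like and 284, 291 and 238 CPM in cDC2-like cells, and Icam1 was at 135, 132 and 104 CPM against 63.8, 75.3 and 64.8 CPM.

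Among B cells, the subsets differed in Itgb1, Itgam and Itgb7. B1-like cells, the innate-type B cells that make natural antibodies, had Itgb1 at 239, 185 and 238 CPM, and naive follicular-like cells had 29.5, 21.5 and 31.1 CPM. The log2 ratio was 3.02, 3.11 and 2.93, and 8.19% of genes were past 1.5-fold in that direction in all 3 libraries. Itgam was at 48.3, 32.3 and 43.1 CPM in B1-like cells and 9.33, 6.82 and 14.0 CPM in follicular-like cells, a log2 ratio of 2.37, 2.24 and 1.62. Itga4 hardly differed (264, 238 and 275 against 245, 207 and 234 CPM). Itgb7 was at 167, 158 and 167 CPM in B1-like, 88.8, 91.6 and 84.2 CPM in follicular-like and 10.3, 20.2 and 24.6 CPM in immature-like cells (Vpreb3, Sox4), and Itgb1 in the immature-like cells was at 30.9, 21.2 and 34.5 CPM. The immature-like cells nevertheless had Itga4 at 196, 184 and 163 CPM, so both beta partners of alpha4 were low in them while the alpha chain was not. Icam1 was lowest in the follicular-like cells at 31.8, 21.1 and 42.5 CPM, and was at 58.7, 55.3 and 56.2 CPM in B1-like and 75.4, 83.9 and 69.0 CPM in immature-like cells.

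T cell subsets were small. Itgal was at 620, 424 and 403 CPM in CD8-like, 433, 336 and 315 CPM in regulatory-like and 198, 127 and 218 CPM in naive-like T cells. With each library clustered alone, the log2 ratio of Itgal in CD8-like over naive-like cells turned to -0.75 (HHcy-labelled, from 1.74) and -0.12 (WD, from 0.89). Itga4 in CD8-like cells was at 596, 506 and 770 CPM, and over naive-like cells its log2 ratio was 1.05, 1.18 and 0.69, where 12.4% of genes were past 1.5-fold in all 3 libraries. Itgae in regulatory-like T cells was at 100.0, 24.9 and 169 CPM, which rests on 9, 4 and 15 UMIs in 21, 24 and 20 cells. Only 14.3%, 8.33% and 15% of those cells held an Itgae UMI. The intervals, 45.7 to 190, 6.78 to 63.7 and 94.5 to 279 CPM, treat UMIs of the same cell as independent and so are too narrow here. They overlap between control and each other library but not between the library labelled HHcy and the WD library.

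**Figure D3:**
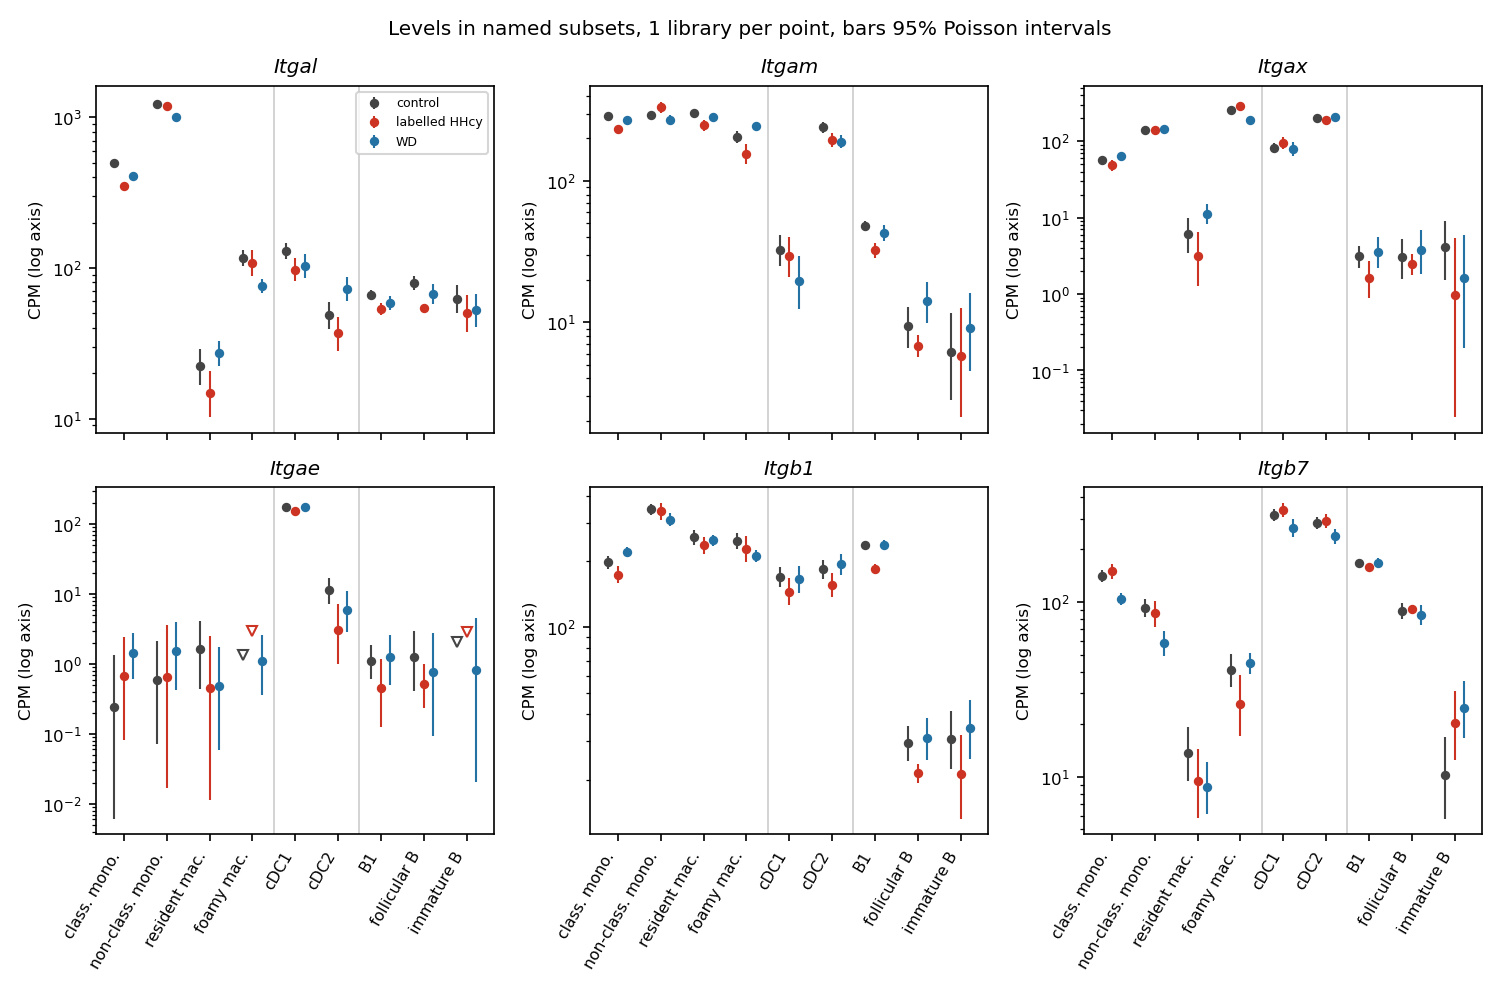
Level of Itgal, Itgam, Itgax, Itgae, Itgb1 and Itgb7 (CPM, log axis) in 9 named subsets of macrophages/monocytes, dendritic cells and B cells, with 1 point per library, bars for the 95% Poisson interval and open triangles for sums of 0 UMIs drawn at the level of 3 counts. Itgal spans from 1009 CPM or more in non-classical monocytes to 27.3 CPM or less in resident macrophages.

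Both chains of a receptor in the same cell were counted after each cell was thinned to 1000 UMIs, since deeper cells show more genes. LFA-1 transcripts (Itgal with Itgb2) were found together in 32.5%, 33.8% and 27.3% of non-classical monocytes, 28.1%, 12.5% and 17.2% of NK cells and 0%, 0% and 0.519% of resident macrophages. The product of the separate shares in non-classical monocytes, 31.2%, 33.4% and 27.1%, was nearly the same, so the chains were found together about as often as their separate shares give. Over the whole macrophage/monocyte class the pair was found in 10.1%, 8.31% and 6.26% of cells, above the product of 7.48%, 4.95% and 4.08%. That class joins subsets that are high and low in both chains. Without thinning the pair was found in 87.2%, 89.8% and 83.3% of non-classical monocytes. In fibroblast-like cells, which should lack both, 0 of 25, 0 of 80 and 0 of 159 cells held the pair, which allows up to 13.7%, 4.51% and 2.29% (exact binomial), with median depths of 6145.5, 6598 and 8166 UMIs before thinning. Without thinning, 0%, 1.15% and 2.31% of fibroblast-like cells held the pair, against products of 0.222%, 0.370% and 0.762%.

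Mac-1 transcripts (Itgam with Itgb2) were found together in 10.1%, 13% and 11% of neutrophils and 12.2%, 15.2% and 12.0% of non-classical monocytes, and without thinning in 64.1%, 65.5% and 53.3% and in 67.2%, 70.8% and 57.5%. The order of the libraries in neutrophils changed with the depth, as thinning to 2000 UMIs gave 31.5%, 30.6% and 26.2%. Itgae with Itgb7 occurred in 4.55%, 2.41% and 6.06% of cDC1-like cells, and in 63.6%, 56.0% and 66.7% without thinning. Itga4 with Itgb1 occurred in 14.7%, 11.9% and 12.5% of non-classical monocytes and 4.27%, 2.17% and 4.11% of B1-like cells. Itga4 with Itgb7 occurred in 2.67%, 3.32% and 4.52% of B1-like cells, and the intervals of the pair of shares overlap in each library.

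Between libraries, a gene counted as past the fold in a class when its CPM differed by 1.5-fold or more with at least 50 UMIs over both libraries. In the library labelled HHcy against control, 0 of 62 pairs of a member and a class were higher and 12 were lower, while over all genes 5.75% of such pairs were higher and 8.08% were lower. In the WD library against control, 3 of 62 were higher and 8 lower, against 6.22% and 6.17%. In the library labelled HHcy against the WD library, 2 of 63 were higher and 10 lower, against 5.30% and 7.00%. These comparisons share libraries and cannot be read as separate evidence.

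**Figure D4:**
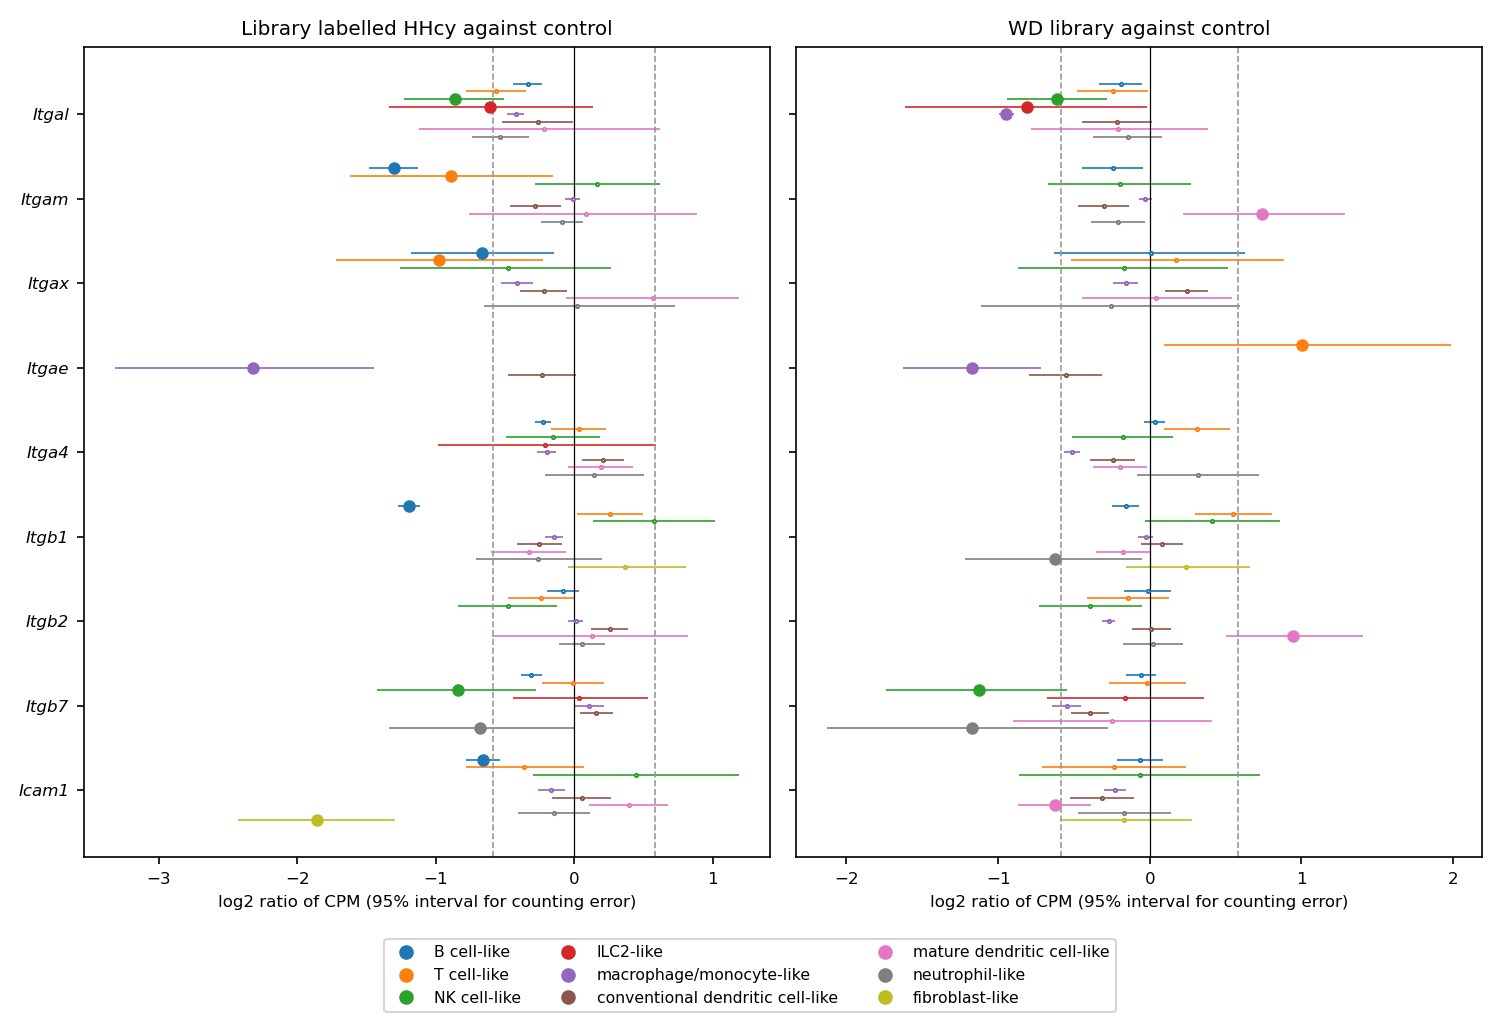
Log2 ratio of CPM of the library labelled HHcy (left) and the WD library (right) to control for each of the 9 genes (rows) and cell classes (colours) with at least 50 UMIs over both libraries. Bars are 95% conditional binomial intervals, dashed lines mark 1.5-fold and large filled circles are past it. In the library labelled HHcy against control, 12 of 62 values are lower past that limit and 0 are higher.

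B cells carried 4 of the 12 lower values. Itgb1 was at 165, 72.5 and 148 CPM, and HHcy-labelled over control gave -1.19 on the log2 scale (95% interval -1.27 to -1.11), and Itgam at 35.0, 14.2 and 29.5 CPM, -1.30 (-1.48 to -1.13). Icam1 gave -0.66 and Itgax -0.66, and in B cells 8.06% of genes were lower past 1.5-fold in that comparison and 3.91% higher. The median log2 ratio of the 8 tested members was -0.50, against -0.05 over all genes. In both Itgb1 and Itgam the library labelled HHcy was the low one and the other libraries were close: WD against control gave 0 of 8 members past the fold in B cells, where 3.09% of genes were higher and 3.15% lower. The B cell subsets moved with it, as B1-like cells made up 50.8%, 18.9% and 39.6% of B cells and follicular-like cells 31.5%, 70.5% and 38.1%. With both libraries given the same mix of sub-clusters, the ratios were -0.37 for Itgb1, -0.64 for Itgam, -0.23 for Icam1 and -0.92 for Itgax. Within B1-like cells alone, 1 of 8 members was lower (Itgax, -0.94, from 14 HHcy-labelled and 39 control UMIs), where 2.79% of genes were. Itgam in B1-like cells, at 48.3 CPM in control and 32.3 CPM in the library labelled HHcy, fell just short of 1.5-fold. Within follicular-like cells 1 of 8 was lower (Icam1, -0.59), where 5.33% were.

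**Figure D5:**
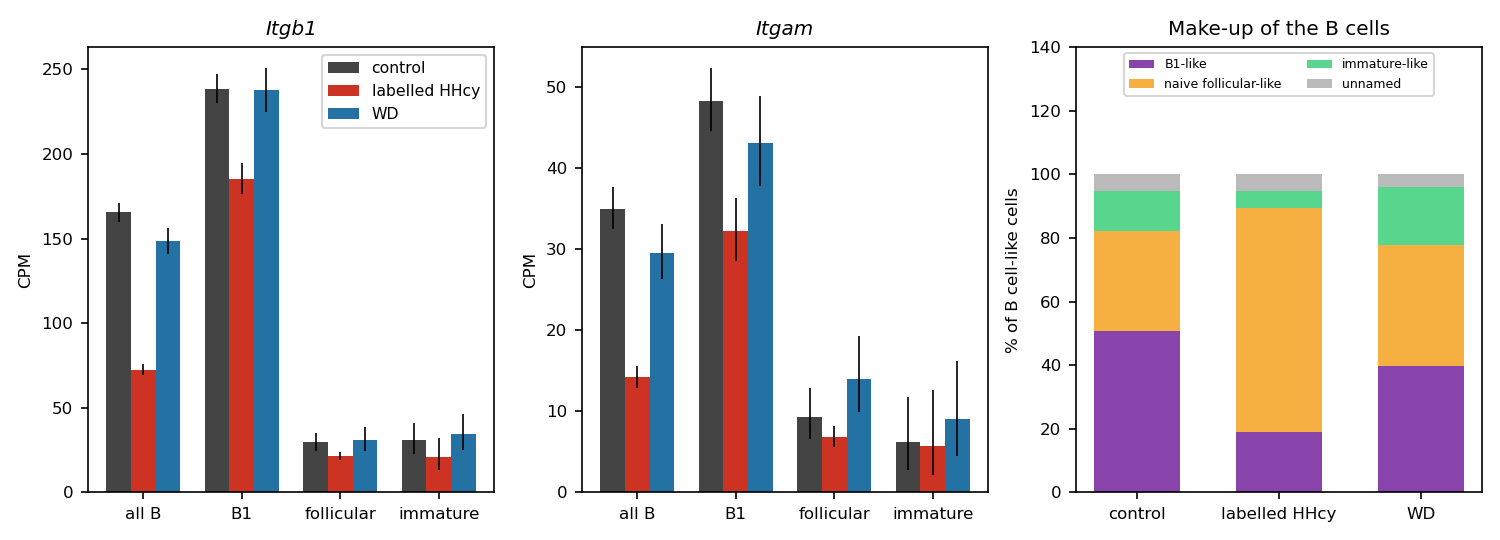
Itgb1 and Itgam in all B cell-like cells and their subsets by library (bars, CPM, with lines for the 95% Poisson interval), and the percentage of B cell-like cells in each subset by library (stacked bars). For all B cells Itgb1 is at 165, 72.5 and 148 CPM, and within B1-like cells at 239, 185 and 238 CPM.

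In macrophages/monocytes, Itgal was at 371, 277 and 193 CPM, and WD against control gave a log2 ratio of -0.95 (-1.0 to -0.90), where 3.89% of genes were lower past 1.5-fold. Non-classical monocytes, the subset with the most Itgal, made up 23.7%, 18.2% and 14.8% of the class. With the same mix of sub-clusters in both libraries the ratio was -0.28, under 1.5-fold. Itgam did not follow, at 379, 376 and 371 CPM. Itgb7 in the library labelled HHcy against WD was 0.66, and 0.31 with the same mix.

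Itgae in this class rested on 99, 12 and 71 UMIs and gave -2.32 (HHcy-labelled) and -1.17 (WD) against control. The cycling subset was the highest, at 51.7, 5.85 and 14.5 CPM. Its 78, 42 and 122 cells held 89, 5 and 38 of the Itgae UMIs of the class. The cDC1 markers Xcr1 and Clec9a were also present in the cycling subset, at 94.2, 59.7 and 31.7 CPM and at 68.6, 63.2 and 35.6 CPM, against 248, 316 and 327 CPM and 199, 217 and 187 CPM in cDC1-like cells. Their part in the Itgae values was not tested. The WD ratio turned positive in 3 alternatives, at 0.47 with a mitochondrial limit of 20%, 0.43 with finer clusters and 0.53 with each library clustered alone.

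Icam1 also differed past 1.5-fold in mature dendritic cells (78, 35 and 112 cells) and fibroblasts (30, 87 and 173 cells). In mature dendritic cells, Icam1 was at 282 CPM (250 to 317), 370 CPM (316 to 431) and 183 CPM (163 to 205), so that the WD interval lies below the others, and those of control and the library labelled HHcy just meet. The log2 ratio was -0.63 for WD against control and 1.02 for the library labelled HHcy against WD, where 9.90% of genes were higher. These CPM intervals treat UMIs of the same cell as independent. After thinning to 1000 UMIs, 21.05%, 48.48% and 17.27% of mature dendritic cells held an Icam1 UMI. The intervals for control (12.54% to 31.92%) and WD (10.73% to 25.65%) overlap. Itgb2 was higher in the WD library, 107 against 55.4 CPM (0.94), and so was Itgam, 70.6 against 42.3 CPM (0.74), where 9.92% of genes were higher past 1.5-fold and 7.27% lower. Thinning to 1000 UMIs turned Itgb2 to -0.21, and naming each cell by its own markers turned Itgam to -0.13. In fibroblasts, Icam1 gave -1.86 in the library labelled HHcy against control (58 and 52 UMIs) and -1.69 against WD (58 and 387 UMIs), where 10.4% and 8.26% of genes were lower. Few cells stand behind the fibroblast values.

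NK cells had 32, 24 and 29 cells. Itgal was lower in both other libraries, -0.86 and -0.61 against control (208, 95 and 124 UMIs), and so was Itgb7, -0.84 and -1.13 (84, 39 and 35 UMIs), where 8.22% and 9.37% of genes were lower past 1.5-fold. In T cells the library labelled HHcy had less Itgam (-0.89) and Itgax (-0.97) than control, where 9.11% of genes were lower and 4.62% higher. CD8-like cells, which made up 36.3%, 24.9% and 38.1% of T cells, had Itgax at 57.9, 51.4 and 59.8 CPM. They held 10, 12 and 15 of the 32, 33 and 42 Itgax UMIs of T cells. Itgam in them was at 34.7, 21.4 and 7.98 CPM, from 6, 5 and 2 of 32, 35 and 16 UMIs. Most UMIs of both genes thus lay in other T cells, of which 26, 40 and 27 were in no named subset. The part of this make-up was not tested. The WD library had more Itgae in T cells (1.01, from 15 control and 35 WD UMIs), where 6.51% were higher and 5.52% lower. Of the WD UMIs, 15 lay in regulatory-like and 15 in gamma-delta T cell-like cells. The share of T cells with an Itgae UMI was 4.8% in control and 8.2% in WD. After thinning it was not higher in WD, at 2.90% and 2.74%. ILC2-like cells had less Itgal in both, -0.61 and -0.81, from 32, 35 and 26 UMIs, where 10.1% and 9.26% of genes were lower. Thinning turned these to 0.19 and 0.27, and naming each cell by its own markers turned the WD value to 0.12.

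In neutrophils, Itgam and Itgb2, the Mac-1 chains, stayed within 1.5-fold. Itgb7 was at 31.7, 19.9 and 14.1 CPM, -0.68 and -1.17 against control, and Itgb1 was at 59.7, 49.8 and 38.7 CPM, -0.63 for WD, which turned to 0.23 with doublets kept. The median over all genes in neutrophils was itself -0.20 in the library labelled HHcy against control, with 22.7% of genes lower and 5.95% higher past 1.5-fold. For WD against control, 12.6% were lower and 5.80% higher. Scaled by the trimmed mean of M-values (TMM), Itgb7 in the library labelled HHcy against control gave -0.48, under 1.5-fold, and Itgam turned from -0.09 to 0.11. Itgb7 in WD against control was -1.11 on that scale. For T cells and neutrophils in the library labelled HHcy against WD that median was -0.10 and -0.12.

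Over the 13 named subsets, 3 of 94 pairs of a member and a subset were higher and 9 lower in the library labelled HHcy against control, where 4.92% and 5.64% of all pairs were. For WD against control these were 6 and 7 of 91, against 4.68% and 4.59%, and for the library labelled HHcy against WD 4 and 16 of 94, against 5.25% and 6.37%. The cycling subset of the macrophage/monocyte class also held the cDC1 markers Xcr1 and Clec9a, as given above. Its Itgam and Icam1 were lowest in the library labelled HHcy, at 124, 67.9 and 179 CPM and at 94.8, 48.0 and 120 CPM. In foamy-like macrophages the library labelled HHcy had the most Icam1, 86.6, 131 and 73.8 CPM. It also had the largest share of Mmp12 cells among them, and whether these bear on the Icam1 values was not tested. Itgb7 in non-classical monocytes was lower in the WD library, at 92.6, 86.1 and 58.4 CPM (-0.67, interval -0.96 to -0.38). Icam1 in CD8-like T cells was highest in control, at 214, 112 and 104 CPM from 37, 26 and 26 UMIs. The share of these cells with an Icam1 UMI was not, at 35.85%, 40.38% and 35.71%. Itga4 in naive-like T cells was highest in WD, at 289, 223 and 477 CPM from 51, 133 and 59 UMIs.

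The wider integrin list held 62 other genes: 13 alpha chains, 5 beta chains, 12 ligands and 32 activators and adaptors of the cytoplasmic side. In macrophages/monocytes, 3 of 41 tested were higher and 0 lower in the library labelled HHcy against control, 2 of 43 higher and 2 lower for WD, and 5 of 43 higher and 1 lower between these. The 3 higher ones were all on the ligand list: Vcam1, which binds the alpha4 and beta1 pair, was at 47.7, 78.2 and 33.5 CPM, Icam2, which binds LFA-1, at 44.9, 79.5 and 54.1 CPM, and Thy1 at 1.70, 3.61 and 2.11 CPM. Fn1 (fibronectin) was at 997, 1233 and 748 CPM and was past the fold between the library labelled HHcy and WD. The share of the sub-cluster led by Prg4, Saa3, Alox15, Fn1 and Cd5l, 5.38%, 6.06% and 4.21%, followed the same order. That of the sub-cluster led by Retnla and Fn1, 4.21%, 3.62% and 1.96%, was highest in control. The part of these shares in the Fn1 values was not tested. Cyth3, a cytohesin, was at 121, 97.5 and 73.5 CPM, lower in WD than in control. In those comparisons, 3.29% of genes were higher and 2.98% lower, 3.19% and 3.89%, and 4.17% and 3.51%.

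In B cells 3 of 36 genes of the wider list were higher and 6 lower in the library labelled HHcy against control, and 1 of 35 higher and 1 lower for WD. Over all genes these shares were 3.91% and 8.06%, and 3.09% and 3.15%. Itga5, the alpha chain of the fibronectin receptor, was at 6.27, 1.97 and 5.53 CPM (-1.67 for HHcy-labelled against control) and the adaptor Parvb at 5.97, 1.47 and 4.15 CPM (-2.02). Both were lowest in the library with the smallest share of B1-like cells among B cells, and a part of that share in these values was not tested. In T cells 3 of 31 were higher and 1 lower in the library labelled HHcy, and 2 of 26 higher and 0 lower for WD, where 4.62% and 9.11%, and 6.51% and 5.52%, of all genes were. In neutrophils 2 of 26 were higher and 4 lower in the library labelled HHcy and 0 of 24 higher and 3 lower for WD, where 5.95% and 22.7%, and 5.80% and 12.6%, of all genes were. There Fn1 was at 53.2, 9.73 and 24.6 CPM, Cyth3 at 39.2, 15.0 and 14.1 CPM, and Rasgrp2, an activator of Rap1 upstream of integrins, at 117, 66.1 and 94.9 CPM.

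The genes most like each member over the 9 classes were ranked by Pearson's r of mean log2(CPM + 1) among 9127 genes, as a description over 9 points that share libraries and depth. Itgal was closest to Apbb1ip (r = 0.962), which encodes an adaptor of Rap1 and talin, then Bin2 (0.952) and Slc20a1 (0.950). Itgam was closest to Klra2 (0.978), Cd300ld and Vamp3, and Itgb2 to Lrrfip1 (0.989), Ppp1r18 and Ptpre. Itgax was closest to Sh2d1b1 (0.953), Amdhd2 and Arpc2, Itgae to Prelid1 (0.954), Adgrg5 and Timeless, and Itga4 to Arrdc1 (0.969), Tmem128 and Ap1g2. Itgb1 was closest to Emc8 (0.974), Ndufb4 and Plekhg2, Itgb7 to Rrp1b (0.973), Mfng and Ripk3, and Icam1 to Zfand3 (0.938), Srxn1 and Pcyt1a. With a pseudocount of 10, between 0 (Itgax) and 3 (Itgal) of the 3 names were kept.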

How the data were processed

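The authors deposited, per library, a matrix of raw UMI counts per gene and cell barcode. Per the labels' protocols, library preparation used the 10x Chromium 3' kit, version 3. The file headers name Cell Ranger 4.0.0, while the submitters' processing notes name Cell Ranger 2.2.0 and mm10, and which of the versions made the counts is not settled. The files held 0 columns from outside the series.

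Barcodes with at least 200 genes and at most 10% mitochondrial UMIs were kept. A barcode with 50% or more of the markers of 2 or more of 6 lineages was left out as a doublet, and doublets within a lineage stay in. The 3 libraries were clustered together (2000 variable genes, 30 principal components, 20 neighbours, Leiden resolution 1.0, sub-clusters 0.5, seed 1), with the 9 genes kept out of the variable genes and of the marker lists. A cluster was named "X-like" from at least 3 markers detected in 25% of its cells, a marker score of at least 0.2 and 50% of its class markers. Some of these naming limits were set after seeing the data. The names were rebuilt here and may differ from the study's.

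For each class and library, the UMIs of a gene were summed and expressed per 1000000 UMIs of that class (CPM), with exact 95% Poisson intervals. Ratios carry exact conditional binomial intervals and shares Clopper-Pearson intervals, and all of these cover counting error only. No test between groups is possible with 1 library each, and no p-value was computed. Classes needed 20 cells in each library, and otherwise summed UMIs are given. All 9 genes were described in every such class and named subset, ratios where they passed 1.5-fold with 50 UMIs, genes of the wider list likewise with at most 4 per class and comparison, and the 3 most alike genes at 20 CPM or more in some class. The members and lists were chosen with earlier results of these data known. The scripts were tested on simulated data. Python 3.11.15, numpy 2.4.6, scipy 1.17.1, pandas 2.3.3, scikit-learn 1.9.0, leidenalg 0.10.2 and, for TMM factors, edgeR 4.0.16 were used. Promoter windows came from the RefSeq table, which held 6 of the 9 genes. Alternatives varied the mitochondrial limit, doublets, clustering, naming, scaling, depth, UMI and fold limits and the mix of sub-clusters.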

Additional observations from a re-analysis of the deposited data

Results flagged for a closer look

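A pair of genes moved in opposite directions in different cell classes under the same comparison. In the WD library against control, the log2 ratio of Itgae was 1.01 in T cell-like cells and -1.17 in macrophage/monocyte-like cells, from 35 and 15 UMIs and from 71 and 99 UMIs. In T cells, regulatory-like cells held 15 of the 35 WD and 9 of the 15 control UMIs. Gamma-delta T cell-like cells held 15 of the WD and 1 of the control UMIs. The share of T cells with an Itgae UMI was 8.2% in WD and 4.8% in control. After thinning, that share was not higher in WD, at 2.74% against 2.90% in control. The cycling subset held 38 of the 71 WD and 89 of the 99 control UMIs in macrophages/monocytes. The macrophage value became 0.47, 0.43 and 0.53, the same sign as in T cells, with a mitochondrial limit of 20%, with finer clusters and with each library clustered alone. In the library labelled HHcy against WD, the log2 ratio of Icam1 was 1.02 in mature dendritic cells, -0.60 in B cells and -1.69 in fibroblasts. The difference between the classes was not tested, since each group had 1 library.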

How the results depend on the processing

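No paired analysis was possible because each group had 1 library. The number of member and class pairs past the fold was 12 in the library labelled HHcy against control, 11 in WD against control and 12 in the library labelled HHcy against WD. A fold limit of 2 gave 4, 4 and 6, and a limit of 1 UMI gave 23, 24 and 24. Thinning to 1000 UMIs gave 6 for WD against control and 6 for the library labelled HHcy against WD, and clustering each library alone gave 20 for the library labelled HHcy against control. Leaving out macrophages with 10 or more Apoe UMIs, chosen after seeing the data, gave 12, 11 and 13.

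Of the alternative log2 ratios between libraries, 810 moved by less than their counting interval, 110 moved further and 21 changed sign, and of the ratios between subsets 405, 135 and 2. Of the alternative pair shares, 15 stayed within their interval and 21 moved further. The cause was not tested. Thinning turned Itgal in ILC2-like cells to 0.19 (HHcy against control) and 0.27 (WD against control), in CD8-like cells to 0.077 and in foamy-like cells to 0.47 (WD against control). It also turned Itgam in cDC1-like cells to 1.00, Itgax in cycling cells to -0.06 and Itgb2 in mature dendritic cells to -0.21 (WD against control), Itgb1 in naive-like T cells to 0.35 and Itgb2 in mature dendritic cells to 0.42 (HHcy against WD), and Itgb7 in regulatory-like T cells to -0.42 (HHcy against control). Naming each cell by its own markers turned Itgal in ILC2-like cells to 0.12 and Itgam in mature dendritic cells to -0.13 (WD against control), and Itgb2 in mature dendritic cells to 0.001 (HHcy against WD). Each library clustered alone turned Itgax in T cells to 0.18 (HHcy against WD), Itgae in macrophages to 0.53 (WD against control), and Itgal of CD8-like over naive-like T cells to -0.75 in the library labelled HHcy and -0.12 in WD. A mitochondrial limit of 20% turned Itgae in macrophages to 0.47 and Itgax in resident-like macrophages to -0.002, and Leiden resolution 2 turned Itgae in macrophages to 0.43 (WD against control). With doublets kept, Itgae in macrophages was 0.46 and Itgb7 in foamy-like cells 0.10 (HHcy against WD), and Itgb1 in neutrophils 0.23 (WD against control). The small classes limit the depth: NK cell-like cells held 246463 UMIs in all in the library labelled HHcy.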
